A study of Homo sapiens with 15 samples.

Results

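The respiratory chain and ATP synthase genes of NCI-H1975 cells were followed across 5 culture groups, with the genes of the nucleus and those of the mitochondrial genome kept apart. Members were chosen by symbol: protein-coding NDUFA, NDUFB, NDUFC, NDUFS and NDUFV subunits, SDHA to SDHD, CYC1 and the UQCR genes, the COX4 to COX8 subunits, the ATP5F1, ATP5M and ATP5P subunits, and the 13 MT- protein genes. The rule reads symbols, not values. It gave 100 of the 61248 loci in the table, 87 nuclear (38 of complex I, 4 of complex II, 10 of complex III, 17 of complex IV and 18 of complex V) and 13 mitochondrial. NDUFA4 was counted with complex I by its name, although it is now regarded as a subunit of complex IV. NCI-H1975 is an established human line from a non-small cell lung cancer that carries a mutated EGFR. The groups, with 3 libraries each, were control, almonertinib (an inhibitor of the EGFR kinase), EGF (which binds EGFR), siEGFR (knockdown of EGFR by siRNA) and siNC (its control siRNA). All 15 libraries come from this line, and the labels give no dose, time or clone and no medium for the control. They do not say whether replicates are separate cultures. The p-values rest on how far the 3 libraries of a group spread, pooled over all 5 groups, and that spread may be technical.

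The respiratory chain passes electrons from NADH and succinate to oxygen and pumps protons across the inner mitochondrial membrane, and ATP synthase uses the return flow of protons to make ATP. Complex I takes electrons from NADH, complex II from succinate, complex III hands them to cytochrome c, complex IV reduces oxygen, and complex V is ATP synthase. Most subunits are encoded in the nucleus and imported, whereas the mitochondrial genome encodes core subunits of complexes I, III, IV and V that are transcribed as long precursors and cut into separate RNAs. Only complex II is encoded by the nucleus alone.

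Pairs of mitochondrial genes that share an mRNA are shown here because reads in the shared bases cannot be given to either gene, which bears on their separate values. In GENCODE v29 (GRCh38), MT-ATP8 and MT-ATP6 share 46 bases, 22.2% of MT-ATP8, at chrM:8527-8572, and MT-ND4L and MT-ND4 share 7 bases at chrM:10760-10766, all on the plus strand. The stretches below run from chrM:8512-8587 and from chrM:10745-10781, with the shared bases in capitals.
MT-ATP8/MT-ATP6: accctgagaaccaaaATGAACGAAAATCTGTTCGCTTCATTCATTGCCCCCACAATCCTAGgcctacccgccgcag
MT-ND4L/MT-ND4: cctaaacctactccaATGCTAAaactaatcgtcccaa

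Promoters of 3 nuclear genes are shown because these genes had the 2 highest and the lowest differences from control among the nuclear members with EGF. They are ATP5MC1 and ATP5MC2, which encode the same mature c subunit of the ATP synthase rotor, and NDUFS6, an accessory subunit of complex I. The bases, from RefSeq on GRCh38.p14, run from 130 before to 20 after the annotated start at chr17:48892657-48892806 (plus strand), chr12:53676064-53676213 (minus strand) and chr5:1801277-1801426 (plus strand). Capitals mark matches to the motifs searched. ATP5MC1 has the cAMP response element TGACGTCA at position -57 and the E-box CACGTG at position 5, counted from the start base as 1, while ATP5MC2 and NDUFS6 hold the core of the NRF1 site, GCATGCGC on either strand, at positions -40 and -46.
ATP5MC1: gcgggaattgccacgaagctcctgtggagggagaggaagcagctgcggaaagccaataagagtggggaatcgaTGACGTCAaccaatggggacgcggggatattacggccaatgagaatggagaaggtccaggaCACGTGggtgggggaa
ATP5MC2: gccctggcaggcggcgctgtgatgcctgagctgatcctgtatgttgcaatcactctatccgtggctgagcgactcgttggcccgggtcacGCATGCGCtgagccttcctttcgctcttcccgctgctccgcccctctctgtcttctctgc
NDUFS6: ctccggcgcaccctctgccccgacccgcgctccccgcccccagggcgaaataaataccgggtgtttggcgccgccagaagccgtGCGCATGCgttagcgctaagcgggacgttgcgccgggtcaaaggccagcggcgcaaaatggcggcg

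Sites for factors known to act on respiratory genes were counted over windows from 250 bases before to 50 after the start. RefSeq held such a window for 68 of the 87 nuclear members, counted with 1 window per symbol. The 35116 promoters set beside them were not reduced in this way or limited to tested loci. The shares are thus over unlike sets, and their difference was not tested. The NRF1 core was in 13 of the 68 (19.1%), against 3.05% of 35116 promoters of the same length. The YY1 motif AAGATGGCG was in 8 members (11.8%, against 1.75% of all promoters), the ETS motif ACCGGAAG bound by GABP in 5 (7.35% against 2.17%), TGACGTCA in 5 (7.35% against 1.85%) and CACGTG in 7 (10.3% against 7.26%). Both strands were searched, and motifs were counted also where they overlapped each other. Of the 28 members in this table that rose with EGF, 5 held the NRF1 core, against 8 of the 34 other tested members, and YY1 was in 2 and 5. A match describes letters and is not evidence of binding.

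Libraries held 18009903 to 34908302 reads, and 27774 to 31109 loci were above 0 in each. EGFR itself was at 49.4 to 49.8 FPKM in siNC and at 28.6 to 29.9 FPKM in siEGFR, a difference of -0.75 ± 0.11 log2 (SE, n = 3 per group, limma adjusted p = 0.00165), and at 22.3 to 28.0 FPKM in control. All 5 epithelial markers were expressed, with a summed level of 916.5 to 1118 FPKM in control and 1081 to 1126 in siNC, but single markers moved. KRT7 was at 44.2 to 68.9 FPKM in control and at 292 to 316 in siNC, EPCAM at 5.93 to 7.12 and at 34.2 to 36.3, and KRT19 at 520.5 to 628 and at 329 to 339. Among markers of other cell types, 1 of 5 leukocyte genes (CD14), 3 of 6 fibroblast genes and 2 of 4 endothelial genes reached 1 FPKM in at least 3 libraries, while PTPRC was never above 0.0620 FPKM and DCN never above 0.00389. The summed fibroblast level was 337 to 353 FPKM in control, 359 to 383 with almonertinib, 193 to 214 with EGF and 138 to 146 in siNC, nearly all of it COL1A2, and the leukocyte sum was 30.7 to 40.6 FPKM in control, 36.0 to 39.1 with EGF and 7.38 to 8.05 in siNC. The part of these differences in the results below was not tested. In bulk libraries, fewer cells of a kind and less RNA per cell cannot be told apart.

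Tested members were those with at least 1 FPKM (fragments scaled to gene length and library size, the deposited unit) in at least 3 libraries. These were 77 of the 87 nuclear genes, 35 of complex I, 4 of complex II, 10 of complex III, 11 of complex IV and 17 of complex V, and all 13 mitochondrial genes. Means of the nuclear genes over all libraries ran from 0.936 FPKM for NDUFA9 to 423 FPKM for NDUFS5, an accessory subunit of complex I, with a median of 30.6. The lengths recovered for them ran from 421 to 19359 bases (median 2475), with 10391 for NDUFA9 and 548 for NDUFS5. FPKM divides reads by that length, so differences in level between genes, and the 1 FPKM minimum, depend on it. The 4 genes fixed as markers of the chain were well above that minimum, at 8.33 FPKM for NDUFS1, 113 for UQCRC1, 83.6 for COX4I1 and 8230 for MT-CO1. Changes are given as differences in log2(FPKM + 1) with their SE, and rose or fell means an adjusted p under 0.05 over the 14999 loci tested. The added 1 shrinks the change of genes near 1 FPKM.

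The 10 nuclear members that did not pass were mostly paralogs of common subunits, several of them known from particular tissues. COX6A2, the heart and muscle form of subunit 6A, was listed at 0 in every library, while COX6A1 was at 14.5 ± 1.70 FPKM in control (SD, n = 3). COX4I2, COX7B2 and NDUFA4L2 stayed at or below 0.110 FPKM, against 82.8, 76.4 and 39.9 FPKM for COX4I1, COX7B and NDUFA4 in control. COX8C reached at most 0.388 FPKM and ATP5MGL 0.197. COX6B2, the testis form, ran from 0.0764 to 0.164 FPKM in control and from 0.474 to 0.646 in siNC, and COX7A1 reached 1.62 FPKM in control replicate 1 alone. NDUFA7 and NDUFV2 did not pass either. NDUFV2 encodes an iron-sulfur core subunit of complex I that every complex needs, yet it held 0 to 7 reads per library. Of its exon bases, 28.4% are shared with another gene in GENCODE v29, and how its reads were assigned was not tested.

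Replicates of control, almonertinib and EGF spread more than those of the siRNA groups. The median SD over the 77 nuclear members was 0.13 log2 in control, 0.14 with almonertinib, 0.13 with EGF, 0.06 in siNC and 0.04 in siEGFR. Control replicate 1 and almonertinib replicate 3 stood apart from their groups in several members. SDHD, a membrane anchor of complex II, was at 9.63, 4.54 and 5.93 FPKM in control replicates 1 to 3 and at 4.32, 3.99 and 10.2 with almonertinib. ATP5PF, a subunit of the ATP synthase stalk, was at 13.4, 5.71 and 10.0 FPKM and at 5.61, 5.87 and 13.6. ATP5F1D, a subunit of the F1 part of ATP synthase, went the other way in control, at 18.6, 40.3 and 34.5 FPKM. Counts without both libraries are given with each nuclear comparison.

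EGF-treated cells had more RNA of nuclear respiratory chain genes than control cells. Of 77 tested, 36 rose and 1 fell, against 22.0% of all loci that rose and 27.3% that fell (49.3% in either direction). At an unadjusted p under 0.05 there were 42 members, against 55.0% of all loci. The median difference of the 77 was 0.25 log2, and that of all loci tested was -0.04. Replicates did not overlap for 39 members that were higher and 1 that was lower, against 22.3% and 28.8% of all loci. The gene that fell was ATP5MC2. Without control replicate 1 and almonertinib replicate 3 the counts were 44 and 4. The part of the COL1A2 difference, which moved with EGF, was not tested.

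**Figure D1:**
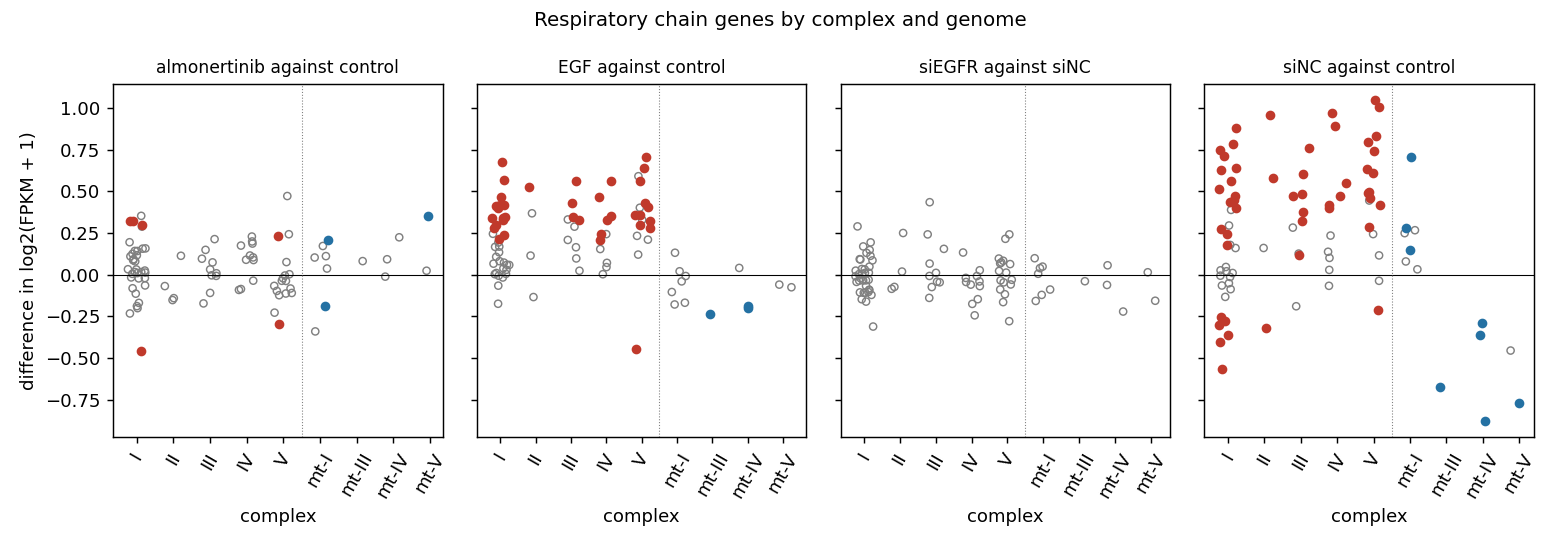
Differences in log2(FPKM + 1) of the 77 tested nuclear and 13 mitochondrial (mt) members by complex in 4 comparisons of 3 against 3 libraries. Each point is a gene, filled (red nuclear, blue mitochondrial) with an adjusted p under 0.05 and open otherwise. With EGF 36 nuclear members rose and 1 fell, and siEGFR against siNC had none past the threshold in the fit of all 15 libraries.

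In complex I, 15 of 35 members rose with EGF and none fell. NDUFS6 was at 104, 104 and 109 FPKM in control and at 160, 172 and 177 FPKM with EGF. It rose by 0.68 ± 0.07 log2 (limma adjusted p = 4.12e-06), and every EGF library was above every control library. NDUFA6, a LYR-motif accessory subunit, rose by 0.57 ± 0.11 and the accessory subunit NDUFB3 by 0.47 ± 0.08. NDUFS1, the largest core subunit, which carries iron-sulfur clusters, was at 8.03, 7.06 and 7.40 FPKM in control and at 9.45, 8.88 and 9.67 with EGF, a rise of 0.28 ± 0.06 (limma adjusted p = 0.00261). NDUFV1, the subunit that binds NADH, had the lowest difference of the complex, -0.17 ± 0.11, with overlapping replicates (limma adjusted p = 0.191).

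In complex II, 1 of 4 members rose and none fell. SDHB, the iron-sulfur subunit, was at 23.9, 26.3 and 26.9 FPKM in control and at 34.9, 38.9 and 38.4 with EGF, without overlap, a rise of 0.53 ± 0.06 (limma adjusted p = 9.40e-06). SDHA, the flavoprotein that oxidises succinate, differed by -0.13 ± 0.11, SDHC by 0.11 ± 0.10 and SDHD by 0.37 ± 0.29, and none of these 3 passed the test. In complex III, 4 of 10 rose. UQCRFS1, the Rieske iron-sulfur protein, rose by 0.56 ± 0.08, UQCR11 by 0.43 ± 0.07 and the hinge protein UQCRH by 0.34 ± 0.08. The fourth, UQCRHL, is a near copy of UQCRH, so its reads are uncertain. UQCRC1, a core protein, went from 114 ± 18.4 FPKM (SD, n = 3) to 127 ± 12.9, which did not pass (limma adjusted p = 0.239).

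In complex IV, 6 of 11 rose and none fell. COX7B, a small membrane subunit, rose by 0.56 ± 0.12 and COX5A, a matrix-side subunit, by 0.47 ± 0.06. COX7A2, COX6C, COX6A1 and COX6B1 rose by 0.35, 0.33, 0.24 and 0.21, and the last 2 lost the call in 5 of the 10 other settings that left no single library out. COX4I1, a regulatory subunit that binds ATP, was at 82.8 ± 9.77 FPKM in control and 85.3 ± 8.10 with EGF (SD, n = 3), a difference of 0.05 ± 0.08 (limma adjusted p = 0.677). In complex V, 10 of 17 rose and 1 fell. The catalytic beta subunit ATP5F1B was at 259, 301 and 280 FPKM in control and at 340, 379 and 360 with EGF, all higher, a rise of 0.36 ± 0.06 (limma adjusted p = 0.000225). The alpha subunit ATP5F1A rose by 0.28 ± 0.06, the stalk subunit ATP5PB by 0.43 ± 0.07, ATP5MF by 0.41 ± 0.06 and the small subunit ATP5MK by 0.64 ± 0.18.

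**Figure D2:**
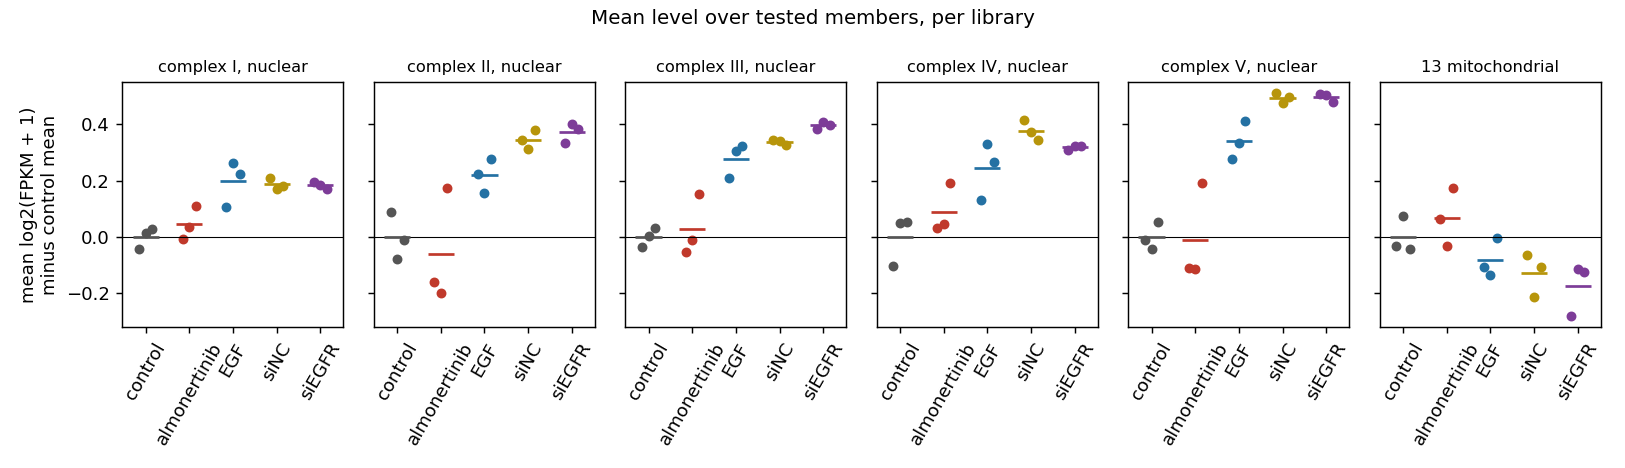
Mean log2(FPKM + 1) over the tested members of each complex and over the 13 mitochondrial genes in each library, minus the control mean. Points are libraries and bars are group means (n = 3). All 3 EGF, siNC and siEGFR libraries lie above all 3 control libraries for every nuclear complex, and the almonertinib libraries overlap with control.

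Almonertinib changed few nuclear members. Of 77, 4 rose and 2 fell, against 12.1% and 18.0% of all loci (30.1% in either direction), and 12 had an unadjusted p under 0.05, against 43.0%. The median difference was 0.02 log2 against -0.06 over all loci. NDUFS1 was at 5.58, 4.61 and 5.39 FPKM with almonertinib, below the 7.06 to 8.03 FPKM of control, and fell by 0.46 on the log2 scale ± 0.06 (limma adjusted p = 0.000273). ATP5MC1 fell by 0.29 ± 0.09. The genes that rose were the complex I subunits NDUFA11, NDUFB11 and NDUFV1, by 0.32 ± 0.08, 0.32 ± 0.07 and 0.30 ± 0.11, and ATP5MC2, by 0.23 ± 0.06. Replicates did not overlap for 10 members that were higher and 2 that were lower, against 14.6% and 20.6% of all loci. No member of complexes II, III and IV passed, the lowest adjusted p being 0.0820 in complex IV (limma).

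These counts depended on single libraries and on the scaling. Without almonertinib replicate 3 they were 4 and 9, without almonertinib replicate 2 they were 2 and 1, and without control replicate 2 they were 8 and 3. Without control replicate 1 and almonertinib replicate 3 together they were 1 and 5. Values rescaled to TPM gave 2 and 9, an equal sum outside the mitochondrial genome 3 and 9, and median-ratio scaling 6 and 1. NDUFS1 alone passed, 1 of 76 members, in a fit of only the 6 libraries compared, beside 6.71% of the 13510 loci in that fit. Of the members with the most extreme differences, ATP5F1D (0.47 ± 0.24) and NDUFB7 (0.35 ± 0.17) overlapped between the groups and did not pass. NDUFB3 (-0.23 ± 0.08, limma adjusted p = 0.0509) passed in 5 other settings. NDUFB11 shares 44.9% of its exon bases with RBM10 on the opposite strand, and the counting is not stated to have used strand.

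Set against each other, EGF and almonertinib cells differed in 39 of 77 nuclear members, 34 higher with EGF and 5 lower, against 32.6% and 30.0% of all loci (62.6% in either direction). At an unadjusted p under 0.05 there were 43 members, against 66.0% of all loci. NDUFS6 was at 85.5, 89.2 and 104 FPKM with almonertinib and at 160 FPKM or more with EGF, a difference of 0.87 ± 0.07 log2 (limma adjusted p = 2.00e-07). NDUFS1 differed by 0.74 ± 0.06, UQCRFS1 by 0.67 ± 0.08 and SDHB by 0.59 ± 0.06. Among those lower with EGF were ATP5MC2, NDUFV1 (-0.47 ± 0.11), NDUFA11 (-0.33 ± 0.08) and NDUFB11 (-0.32 ± 0.07). NDUFV1 was at 225, 249 and 207 FPKM with almonertinib and at 147, 186 and 158 with EGF. Replicates did not overlap for 29 members that were higher and 5 that were lower, against 31.2% and 30.5% of all loci. Without control replicate 1 and almonertinib replicate 3, 45 members were higher and 8 lower.

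In the fit of all 15 libraries, knockdown of EGFR left no nuclear or mitochondrial member past the threshold. That fit shares 1 estimate of spread over 5 groups, and the siRNA replicates spread less than the others. A fit of only the 6 siRNA libraries called 13 of 76 nuclear and 3 of 13 mitochondrial members, beside 24.1% of loci in that fit. In the fit of all 15, 0 of 77 nuclear members rose and 0 fell by limma between siEGFR and siNC, against 2.27% and 3.19% of all loci (5.46% in either direction), and 5 had an unadjusted p under 0.05, against 17.2% of all loci. Under limma-voom on the recovered reads 1 member rose. The median difference was -0.02 log2, against 0.01 over all loci, and non-overlapping replicates were higher for 12 members and lower for 14, against 22.7% and 17.9% of all loci. UQCR10, a small subunit of complex III, was nearest to the threshold. It was at 25.7, 28.1 and 24.2 FPKM in siNC and at 33.5, 35.5 and 37.4 in siEGFR, without overlap, a difference of 0.44 ± 0.12 (limma adjusted p = 0.0524). It passed in 8 of the 10 other settings that left no single library out. The count was 1 without control replicate 1, control replicate 2 or almonertinib replicate 1, and 2 without almonertinib replicate 3 or without this library and control replicate 1 together.

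Other members of the siRNA comparison differed by less. NDUFA3, an accessory subunit of complex I, differed by -0.31 ± 0.13 (limma adjusted p = 0.222) and COX7A2L, a factor that joins complexes III and IV, by -0.24 ± 0.08 (limma adjusted p = 0.124). A fit of only the 6 siRNA libraries, whose replicates are the closest of the study, called 6 members higher and 7 lower of 76, UQCR10, NDUFA3 and COX7A2L among them, beside 12.7% and 11.3% of the 13318 loci in that fit. NDUFS1, at 10.3, 10.0 and 10.3 FPKM in siNC and 9.18, 9.51 and 9.60 in siEGFR, was lower in every library but did not pass, with a difference of -0.10 ± 0.06 (limma adjusted p = 0.478).

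The siNC and control cells differed at 66.0% of all loci, more than in the comparisons of almonertinib, EGF and siEGFR with their controls. In siNC 42 of 77 nuclear members were above control and 8 below, against 34.4% and 31.6% of all loci, with a median difference of 0.32 log2 against 0.03 over all loci. At an unadjusted p under 0.05 there were 53 members, against 68.8% of all loci. Replicates did not overlap for 47 members that were higher and 6 that were lower, against 35.5% and 33.2% of all loci. Without control replicate 1 and almonertinib replicate 3, 44 rose and 10 fell. The labels do not say what besides the siRNA differed between these cultures, so the causes cannot be told apart. KRT7, EPCAM, KRT19, COL1A2 and CD14, given above, moved with this comparison, and their part was not tested.

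ATP synthase held the highest values there, with 12 of 17 members up and 1 down. ATP5F1B was at 576, 589 and 576 FPKM in siNC, against 259 to 301 in control, a rise of 1.05 ± 0.06 (limma adjusted p = 5.20e-09). COX5A was at 83.9, 83.2 and 82.1 FPKM against 38.6, 43.2 and 43.9, a rise of 0.97 ± 0.06 (limma adjusted p = 1.46e-08). In complex III, 7 of 10 rose and none fell, among them UQCRFS1 (0.76 ± 0.08), and in complex IV 6 of 11 rose. SDHD rose by 0.96 ± 0.29 and SDHB by 0.58 ± 0.06, while SDHA, at 4.35, 4.91 and 4.32 FPKM against 4.89, 7.05 and 5.90 in control, fell by 0.32 ± 0.11 with overlapping replicates.

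Complex I had 15 of 35 members that rose and 6 that fell in that comparison, beside 34.4% and 31.6% of all loci. NDUFA3 rose by 0.88 ± 0.13 and NDUFB3 by 0.78 ± 0.08. NDUFB7, an accessory subunit, was at 274, 271 and 260 FPKM in siNC and at 303, 475 and 437 in control and fell by 0.57 ± 0.17. NDUFS4, an accessory subunit needed for stable assembly, was at 49.8, 46.4 and 43.5 FPKM against 55.5, 66.4 and 63.8 and fell by 0.40 ± 0.10. NDUFV1 fell by 0.36 ± 0.11, and the others that fell were NDUFB11, NDUFA11 and NDUFA1. The siEGFR cells had values near those of siNC for these genes, at 249 ± 9.21 FPKM for NDUFB7 and 43.6 ± 0.601 FPKM for NDUFS4 (SD, n = 3).

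The 3 genes for the c subunit moved in different directions. The c subunits form the proton-driven ring of ATP synthase, and ATP5MC1, ATP5MC2 and ATP5MC3 (ENSG00000159199, ENSG00000135390 and ENSG00000154518) encode the same mature protein behind different import signals. The family has processed pseudogenes, and reads shared with them are uncertain. The plot of c-subunit levels shows each library. ATP5MC1 was at 12.1, 12.2 and 13.6 FPKM in control, at 9.70, 8.87 and 11.9 with almonertinib, and at 19.7, 21.3 and 22.6 with EGF. In siNC it was at 27.2, 26.0 and 25.9 FPKM and in siEGFR at 29.6, 27.9 and 26.5. The groups did not overlap except the siRNA pair.

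ATP5MC2 went the other way. It was at 46.9, 53.7 and 51.3 FPKM in control, at 58.9, 60.2 and 59.5 with almonertinib, and at 33.7, 39.3 and 37.5 with EGF. In siNC it was at 42.1, 45.8 and 42.9 FPKM and in siEGFR at 43.8, 42.4 and 40.4. Almonertinib libraries were all above control, and those of EGF and both siRNA groups all below it. ATP5MC3 was at 27.7 to 33.2 FPKM in control, 28.4 to 28.9 with almonertinib, 41.0 to 50.6 with EGF, 47.8 to 50.3 in siNC and 44.8 to 47.5 in siEGFR.

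The c-subunit differences from control were as follows on the log2 scale. With EGF, ATP5MC1 rose by 0.70 ± 0.09 and ATP5MC3 by 0.56 ± 0.08, and ATP5MC2 fell by 0.45 ± 0.06 (limma adjusted p = 2.54e-05, 5.55e-05 and 7.80e-05). With almonertinib, ATP5MC1 fell by 0.29 ± 0.09 and ATP5MC2 rose by 0.23 ± 0.06 (limma adjusted p = 0.0258 and 0.0180), while ATP5MC3 differed by -0.11 ± 0.08 (0.284). The ATP5MC1 call with almonertinib was lost under median-ratio scaling (limma adjusted p = 0.0829) and the ATP5MC2 call under TPM scaling (0.0635). In siNC, ATP5MC1 rose by 1.01 ± 0.09, ATP5MC3 rose by 0.64 ± 0.08 and ATP5MC2 fell by 0.21 ± 0.06. Between EGF and almonertinib, ATP5MC1 differed by 1.00 ± 0.09 and ATP5MC2 by -0.68 ± 0.06.

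The share of ATP5MC2 in the sum of the 3 genes does not depend on how libraries are scaled. It was 53.6 ± 0.859% in control, 60.5 ± 1.22% with almonertinib and 35.3 ± 0.483% with EGF (SD, n = 3). In siNC it was 36.7 ± 1.42% and in siEGFR 36.4 ± 0.284%. The ranges of control, almonertinib and EGF did not overlap. The sum moved less, from 94.4 ± 6.66 FPKM in control to 98.4 ± 1.76 with almonertinib, 105 ± 8.86 with EGF, 119 ± 1.90 in siNC and 116 ± 4.67 in siEGFR.

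**Figure D3:**
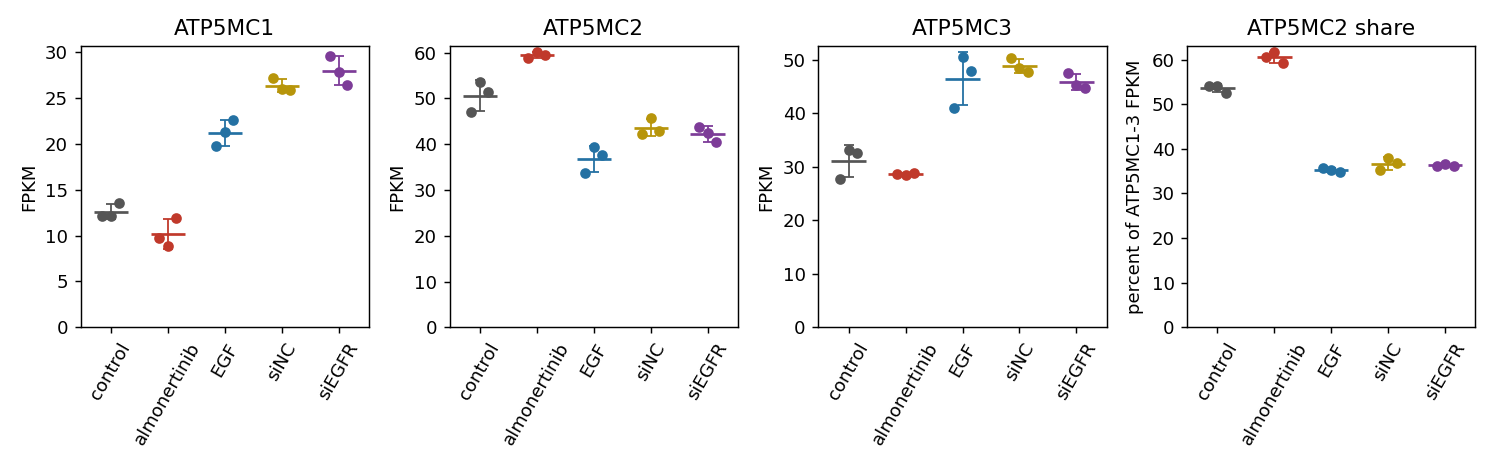
FPKM of the 3 c-subunit genes in every library, and ATP5MC2 as a percent of their summed FPKM. Points are libraries, horizontal bars group means and error bars SD (n = 3). ATP5MC2 makes up 60.5% of the sum with almonertinib, 53.6% in control and 35.3% with EGF.

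The 13 mitochondrial mRNAs did not all move one way. Their levels spanned 20.8-fold, from 450 FPKM for MT-ND6, the only member on the other strand, to 9354 FPKM for MT-CO3. RNA was enriched with oligo(dT) beads, and how far capture by the beads bears on these levels was not tested. MT-CO1, MT-CO2 and MT-CO3, the core of complex IV, were at 9220, 9802 and 11826 FPKM in control. Levels in control were 4851 FPKM for MT-ATP6, 2138 for MT-CYB, the complex III core protein, and 395 to 5909 for the 7 MT-ND subunits of complex I. MT-ATP8, with 207 bases, held the fewest reads of the 13, 1128 to 3671 per library. Its SE was also the largest, at 0.29 log2 between EGF and almonertinib. The SE did not follow length alone, at 0.27 for MT-ND3 (346 bases) and 0.12 for MT-ND4L (297 bases).

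With EGF, 0 of 13 rose and 3 fell, MT-CYB by 0.23 ± 0.06, MT-CO1 by 0.20 ± 0.06 and MT-CO3 by 0.19 ± 0.07, beside 22.0% of all loci that rose and 27.3% that fell. MT-CYB was at 2124, 2169 and 2120 FPKM in control and at 1783, 1787 and 1882 with EGF. Without EGF replicate 2 the count was 1. The median over the 13 was -0.08 log2, near the -0.04 of all loci. With almonertinib MT-ATP6, the proton-channel subunit of ATP synthase, rose by 0.35 ± 0.12 and MT-ND1 by 0.21 ± 0.07, and MT-ND5 fell by 0.19 ± 0.06, 3 calls among 13 genes beside 30.1% of all loci. MT-ATP6 was at 6191, 6278 and 5879 FPKM with almonertinib and at 3848, 5780 and 4925 in control.

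The mitochondrial calls with almonertinib were not stable. They were 0 without control replicate 1 or control replicate 3, and 1 without EGF replicate 3, almonertinib replicate 2 or any siNC or siEGFR library. TPM scaling and an equal sum outside the mitochondrial genome each gave 0 that rose and 2 that fell, and median-ratio scaling 2 and 0. Between EGF and almonertinib 1 was higher with EGF, MT-ND5 (0.21 ± 0.06), and 6 were lower, with MT-ATP6 lowest at -0.43 ± 0.12 and MT-ND1 next at -0.38 ± 0.07. Over all loci, 32.6% were higher and 30.0% lower. Median-ratio scaling gave 0 and 7 there.

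In siNC the mitochondrial genes included 3 that rose and 5 that fell, beside 34.4% and 31.6% of all loci. MT-ND1, the leading gene in genome order, was at 1718, 1603 and 1648 FPKM in siNC and at 1033, 989 and 1027 in control, a rise of 0.70 ± 0.07 (limma adjusted p = 1.83e-06). MT-ND6 and MT-ND5 rose by 0.28 ± 0.11 and 0.15 ± 0.06, but lost the call under median-ratio scaling, which gave 1 that rose and 5 that fell. Leaving out control replicate 1, 2 or 3, siNC replicate 1 or 3, or siEGFR replicate 2 or 3 also gave 1 and 5. MT-CO3 was at 6587, 6070 and 6624 FPKM against 11234, 12656 and 11589 and fell by 0.88 ± 0.07 (limma adjusted p = 1.50e-07). MT-ATP6 fell by 0.77 ± 0.12, MT-CYB by 0.67 ± 0.06, MT-CO2 by 0.36 ± 0.09 and MT-CO1 by 0.29 ± 0.06. The other 4 complex I genes and MT-ATP8 did not pass.

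**Figure D4:**
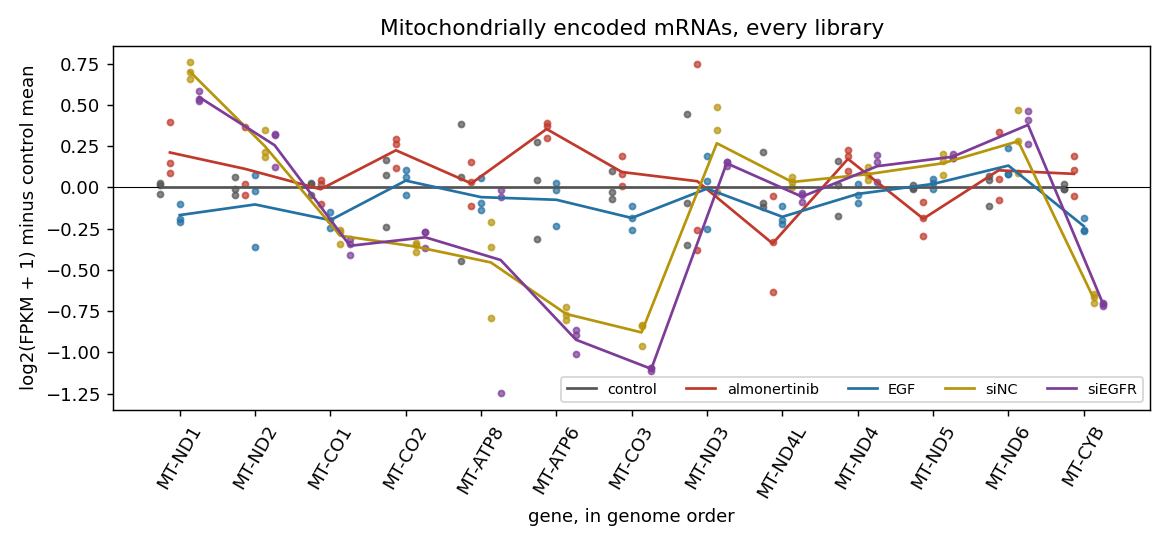
Log2(FPKM + 1) of the 13 mitochondrial genes in genome order, minus the control mean. Points are libraries and lines join group means (n = 3), drawn only to guide the eye. In siNC and siEGFR, MT-ND1 lies above control and MT-ATP6, MT-CO3 and MT-CYB lie below it.

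MT-ND1 and MT-CO3 had the highest and lowest differences of the 13 in siNC, and their ratio within each library is given as a description. It was 0.0862 ± 0.00721 in control, 0.0936 ± 0.00666 with almonertinib and 0.0871 ± 0.00180 with EGF (SD, n = 3). It was 0.258 ± 0.00801 in siNC and 0.269 ± 0.00602 in siEGFR. Between siEGFR and siNC no mitochondrial gene passed by limma in the fit of all 15 libraries, with 2 at an unadjusted p under 0.05, beside 17.2% of all loci. A fit of only the 6 siRNA libraries called 0 higher and 3 lower, beside 12.7% and 11.3% of loci in that fit. MT-CO3 was at 5471, 5522 and 5537 FPKM in siEGFR, below every siNC library, with a difference of -0.22 ± 0.07 (limma adjusted p = 0.0954), and by limma-voom again none passed.

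Ratios between genes that share an mRNA were not tested. MT-ATP6 over MT-ATP8 ran from 6.73 ± 3.15 in siEGFR to 11.1 ± 1.19 with almonertinib (SD, n = 3), with ranges that overlapped. MT-ND4L over MT-ND4 was 1.76 ± 0.138 in control and 1.25 ± 0.261 with almonertinib, whose replicate 3 was at 0.970. The shared bases shown above and the short length of MT-ATP8 and MT-ND4L bear on these ratios, to an extent that was not tested. Nuclear copies of mitochondrial genes took some reads. They held 11.1% to 15.1% of the reads of MT-ATP6 and its copies across all libraries, mostly MTATP6P1, and 2.71% to 5.36% for MT-ND2, and under 1% for the other 11 genes. For MT-ATP6 the share was 12.2% to 14.0% in control and 14.5% to 14.7% in siNC.

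Summed over members, the nuclear share of reads was higher and the mitochondrial share lower in siNC and siEGFR than in control. The 77 tested nuclear genes took 0.818 ± 0.0613% of reads in control, 0.865 ± 0.0204% with almonertinib, 0.944 ± 0.0715% with EGF, 0.974 ± 0.0121% in siNC and 0.943 ± 0.00476% in siEGFR (SD, n = 3). The 13 mitochondrial genes took 4.74 ± 0.275%, 5.03 ± 0.159%, 4.36 ± 0.158%, 3.82 ± 0.0434% and 3.69 ± 0.117%. All siRNA libraries were above all control libraries for the nuclear share and below them for the mitochondrial share, while EGF and control overlapped for the mitochondrial share, at 4.53% against 4.49%.

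Genes that build, feed or regulate the chain were taken from lists of their known roles. With EGF, 16 of 46 assembly factors rose and 3 fell, with NDUFAF8 (0.98 ± 0.20) and COA7 (0.78 ± 0.07) highest and SURF1, a complex IV assembly factor, lowest (-0.40 ± 0.06). Of 30 protein import genes 18 rose and 2 fell, with TOMM40, the outer-membrane channel, at 0.97 ± 0.12. Of 76 mitochondrial ribosomal proteins 38 rose and 2 fell, and of 33 genes of mitochondrial DNA and RNA handling 15 rose and 2 fell, with SLIRP, an RNA-binding protein that stabilises mitochondrial mRNA, highest at 0.76 ± 0.15. Of 19 citric acid cycle genes 8 rose and 1 fell, the latter PC, which makes oxaloacetate from pyruvate (-0.64 ± 0.09). All of these counts of rises stand beside 22.0% of all loci.

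The electron carriers and related dehydrogenases had 8 of 30 that rose with EGF and 3 that fell, beside 22.0% and 27.3% of all loci. CYCS, cytochrome c itself, which carries electrons from complex III to complex IV, was at 12.3 ± 3.07 FPKM in control, 6.77 ± 2.03 with almonertinib and 33.1 ± 4.92 with EGF (SD, n = 3). It rose by 1.37 ± 0.18 with EGF (limma adjusted p = 3.52e-05) and fell by 0.78 ± 0.18 with almonertinib (limma adjusted p = 0.00669). PDSS1, which makes the side chain of ubiquinone, rose by 1.22 ± 0.10 with EGF. Of 12 tested nuclear regulators 3 rose with EGF, a share near that of all loci (22.0%), led by MYC (0.85 ± 0.04) and including GABPB1 (0.42 ± 0.07), a subunit of the ETS factor GABP.

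With almonertinib the counts of list genes were 2 that rose and 7 that fell among assembly factors, 0 and 7 for DNA and RNA handling, 0 and 4 among regulators, 2 and 6 in the citric acid cycle, 4 and 4 among carriers, 1 and 9 for import and 4 and 4 among ribosomal proteins. They stand beside 12.1% of all loci that rose and 18.0% that fell, where falls also outnumbered rises. PPRC1, a coactivator of respiratory genes, fell by 0.60 ± 0.06, COA7 by 0.61 ± 0.07 and PDE12, which trims poly(A) tails of mitochondrial RNA, by 0.72 ± 0.08. Between siEGFR and siNC the 7 lists held 5 genes that fell and 0 that rose by limma, beside 3.19% and 2.27% of all loci: SLC25A3, the phosphate carrier (-0.39 ± 0.05), DLST (-0.34 ± 0.05), ELAC2 (-0.26 ± 0.06), MRPS30 (-0.23 ± 0.05) and MRPS5 (-0.23 ± 0.05).

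Relative to control, siNC cells had higher levels in most lists. The counts of genes that rose and fell were 26 and 5 for assembly factors, 24 and 1 for DNA and RNA handling, 8 and 0 for regulators, 10 and 5 for the citric acid cycle, 15 and 7 for carriers, 19 and 2 for import and 49 and 2 for ribosomal proteins, beside 34.4% and 31.6% of all loci. CYCS was at 45.2 ± 2.27 FPKM in siNC (SD, n = 3) and rose by 1.82 ± 0.18, HSPD1, the matrix chaperonin, rose by 1.80 ± 0.15 and CS, citrate synthase, by 1.15 ± 0.04. PC fell by 1.44 ± 0.09. EGF and siNC were each set against the same control libraries, so these 2 sets of differences are not independent of each other.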

How the data were processed

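RNA was isolated with TRIzol and enriched with oligo(dT) beads before paired-end sequencing, per the labels' protocols. The authors deposited FPKM values for 61248 loci. HISAT2, featureCounts, DESeq2 and hg19 are named in the submitters' processing notes. Versions, annotation and strand setting are not given in the sources used here. From the deposited FPKM steps whole reads were recovered for 99.995% of positive values, within 0.01 reads. Symbols were matched by Ensembl ID for 60463 loci, and gene types and shared exon bases came from GENCODE v29. Of the 87 nuclear members, 47 share exon bases with another gene, 18 over 20%.

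Loci with at least 1 FPKM in 3 of 15 libraries were fitted as log2(FPKM + 1) in R 4.3.3 (limma 3.58.1, mean-variance trend and robust moderation on), with 1 coefficient per group and 10 residual degrees of freedom. Contrasts were two-sided, with Benjamini-Hochberg adjustment over 14999 loci and a threshold of 0.05. The fit was run on simulated data with 1 spread per gene in all groups, which cannot show how it behaves where groups differ in spread. Alternatives changed the pseudocount, filter, scaling, libraries, replicate block and model (limma-voom on the recovered reads). Named genes were the chain markers, the 3 highest and 3 lowest nuclear members per comparison, all MT- and SDH genes, isoform pairs, and the 2 highest and 2 lowest called genes per list. Further members were picked as examples with their values known. Members and lists were chosen with earlier results of these data known. Other tools were Python 3.11.15, numpy 2.4.6, pandas 2.3.3 and matplotlib 3.10.9.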

Additional observations from a re-analysis of the deposited data

How the results depend on the processing

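None of the 65 named gene results past the threshold changed direction under the alternatives, whereas 36 of the 101 that did not pass did so under at least 1, SDHD with almonertinib among them. Many of the 65 lost the call, however: 18 in the 6-library fits, 9 with median-ratio scaling and 9 with no filter. Losses were 8 without control 1 and almonertinib 3, 7 with an equal sum, 5 with TPM scaling and 1 with limma-voom. The replicate block and the pseudocount of 0.1 lost 0. Counts of members past the threshold that moved by over 1.5 times, and some that moved less, were as follows. With almonertinib, 6 nuclear members became 11 with TPM scaling, 12 with an equal sum outside the mitochondrial genome, 9 with the replicate block, 4 with no filter and 1 in the 6-library fit. The 3 mitochondrial members became 1 with no filter, 0 in the 6-library fit, 5 with the replicate block and 0 without control 1 and almonertinib 3, and the TPM and equal-sum settings gave 2 each. With EGF, the 3 mitochondrial members became 1 with median-ratio scaling, 1 in the 6-library fit and 5 without control 1 and almonertinib 3. Between siEGFR and siNC, 0 nuclear members became 1 with TPM scaling, an equal sum, the filter of 5 FPKM, limma-voom or the replicate block, 2 with median-ratio scaling, 13 in the 6-library fit and 2 without control 1 and almonertinib 3. The 0 mitochondrial members became 1 with TPM scaling, an equal sum or without those 2 libraries, and 3 in the 6-library fit. Between EGF and almonertinib the 7 mitochondrial members became 4 in the 6-library fit. Over all loci, the 6-library fits called 6.71% with almonertinib (30.1% in the main fit) and 41.3% with EGF (49.3%). They called 24.1% between siEGFR and siNC (5.46%), 64.1% between siNC and control (66.0%) and 58.4% between EGF and almonertinib (62.6%). Shares over all loci under the other settings are not given here. The 6-library fits hold fewer libraries and take the spread from the 2 groups compared, whereas the main fit shares 1 estimate over 5 groups. The cause of these shifts was not tested. The nuclear counts for EGF (37), siNC (50) and EGF against almonertinib (39), and the siNC mitochondrial count (8), stayed within 1.5 times, at 31 to 48, 46 to 57, 32 to 53 and 6 to 9.

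Leaving out each replicate in turn gave 3 to 13 nuclear and 0 to 4 mitochondrial members with almonertinib, 29 to 43 and 1 to 4 with EGF, 0 to 2 and 0 to 0 for siEGFR, 43 to 55 and 6 to 9 for siNC, and 33 to 49 and 5 to 8 between EGF and almonertinib. Same-numbered libraries did not deviate together in every pair (correlations from -0.17 to 0.60), so the numbers were not taken as pairs. Among control, almonertinib and EGF, however, replicate 2 correlated at 0.53 to 0.60. Replicate 1 ran from -0.16 to 0.55 and replicate 3 from -0.17 to 0.44 in these groups. A structure shared by some of these libraries therefore remains possible and was not tested beyond the replicate block. Limits are 3 libraries a group, no stated dose or time, and reads in bases that genes share.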
